A study of Mus musculus with 8 samples.

Results

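The 9 genes described here encode transcription factors that set up and maintain the hepatocyte program, together with Nr2f2, a nuclear receptor of non-hepatocyte liver cells as well. They were chosen by symbol: Hnf4a, Cebpa, Cebpb, Foxa1, Foxa2, Foxa3, Nr1h4, Nr0b2 and Nr2f2. The platform annotation assigned 12 probes to them, out of 25697 probes and 16593 named genes on the array. Foxa2 had 2 probes, Nr2f2 had 3 and each other gene had 1. Liver RNA was compared between Cic-L-/- mice and wildtype mice, with 4 samples in each group and 1 single-colour Illumina bead array per sample. The labels give both groups as C57BL animals aged 18 days, and they name neither how the Cic-L allele was made nor whether any animals were pooled. The replicate numbers 1 to 4 are not stated to be separate animals, so each p-value reflects variation among the 8 samples alone, some of which may be technical. Capicua, the product of Cic, is a repressor that binds DNA through an HMG box, and its long form is called CIC-L.

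Hepatocyte identity rests on a network in which a few factors bind each other's genes and many liver genes together. FOXA proteins (forkhead factors) open liver chromatin early in development, HNF4A is the nuclear receptor that sustains most differentiated hepatocyte genes, and C/EBP factors (leucine zipper proteins) drive metabolic and acute phase genes. FXR, the product of Nr1h4, senses bile acids and induces SHP, the product of Nr0b2, a receptor without a DNA-binding domain that represses bile acid synthesis genes. COUP-TFII, the product of Nr2f2, is best known in venous endothelium and mesenchyme, and is also expressed in developing liver.

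The promoters of the 3 members whose level differed between the groups (Foxa1, Cebpb and Nr2f2) are shown because Cic encodes a DNA-binding repressor. They are RefSeq windows of build GRCm38.p6, from 250 bases before to 50 bases after the annotated start, 5′ to 3′ on the gene's strand. Foxa1 lies at chr12:57546062-57546361 on the minus strand, Cebpb at chr2:167688665-167688964 on the plus strand and Nr2f2 at chr7:70366697-70366996 on the minus strand. Capitals mark every match, on either strand, to any of 5 motifs: the CIC octamers TGAATGAA and TGAATGGA, the FOXA core TGTTTAC, the TATA box TATAAA and the CCAAT box.
Foxa1: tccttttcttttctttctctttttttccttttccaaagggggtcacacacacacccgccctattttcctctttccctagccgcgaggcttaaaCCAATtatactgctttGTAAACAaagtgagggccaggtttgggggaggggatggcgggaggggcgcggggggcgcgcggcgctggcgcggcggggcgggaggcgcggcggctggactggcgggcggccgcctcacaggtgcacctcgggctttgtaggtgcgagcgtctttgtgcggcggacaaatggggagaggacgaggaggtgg
Cebpb: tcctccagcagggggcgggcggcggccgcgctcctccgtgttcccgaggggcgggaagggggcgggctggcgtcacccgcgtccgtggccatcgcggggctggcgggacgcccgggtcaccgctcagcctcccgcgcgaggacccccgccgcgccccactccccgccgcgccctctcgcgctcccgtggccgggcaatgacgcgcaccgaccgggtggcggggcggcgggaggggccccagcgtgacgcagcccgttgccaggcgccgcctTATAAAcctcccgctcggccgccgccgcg
Nr2f2: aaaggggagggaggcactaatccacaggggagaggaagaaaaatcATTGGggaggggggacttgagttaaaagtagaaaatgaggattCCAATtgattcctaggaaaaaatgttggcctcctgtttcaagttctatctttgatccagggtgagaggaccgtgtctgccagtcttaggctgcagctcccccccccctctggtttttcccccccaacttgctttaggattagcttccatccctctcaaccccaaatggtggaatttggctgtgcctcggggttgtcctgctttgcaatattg

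All 9 members matched the promoter table, with 12 windows in all because Foxa2 has 3 annotated starts and Hnf4a has 2. Neither of the 2 CIC octamers searched for was found in any of the 12 windows, and no other form of the CIC site was searched for. TGAATGAA occurs in 1.3% and TGAATGGA in 1.21% of the 32851 windows of the same length. The FOXA core was found in 1 of the 12, that of Foxa1, where it begins 141 bases before the start on the opposite strand, and it occurs in 3.65% of all windows. The TATA box was found in 5 of the 12 (13.6% of all windows), and in Cebpb it begins 21 bases after the annotated start. The CCAAT box was found in 6 of the 12 (37.4% of all windows), once in Foxa1 and in both orientations in Nr2f2. These are matches of letters and say nothing about binding, and the motifs do not overlap one another in the windows shown. Only 1 start is listed for Nr2f2, although its probes were designed to different transcripts.

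Signals were corrected for background, taken to log2 and quantile normalised. A probe counted as above background on an array when under 5% of the array's control rows were as bright, that is at a detection p under 0.05, and it was tested when this held on at least 4 of the 8 arrays. That left 10300 probes, among them 7 member probes for 7 of the 9 genes. Between 38.7% and 43.5% of all probes exceeded background on an array. The hepatocyte secretory genes Ttr, Apoa1 and Ahsg had log2 signals of 13.87 or more on every array, whereas the Alb probe lay near background, at 4.70 to 5.86 on Cic-L-/- arrays and 5.48 to 6.48 on wildtype arrays. All 4 measured cholangiocyte markers were too dim to test. The single Cic probe was above background on 0 arrays of either group (log2 signal 4.33 to 4.58 in Cic-L-/- and 4.45 to 4.88 in wildtype liver), so it checks nothing about the deletion. Among the 10300 probes, 639 (6.2%) differed at an adjusted p under 0.05, 374 of them higher (3.63%) and 265 lower (2.57%) in Cic-L-/- liver. The higher calls were 58.5% of all calls, and 82.8% with median centring in place of quantile normalisation, which moved the median of all tested probes by 0.16. On the first principal component (40.3% of the variance) the wildtype arrays lay between 19.5 and 25.9. Cic-L-/- replicates 1 and 2 (-28.9 and -28.8) were farther from them than Cic-L-/- replicates 3 and 4 (-16.3 and -14.1). On the second principal component (14.8% of the variance) Cic-L-/- replicates 1 and 2 (15.2 and 14.9) stood apart from Cic-L-/- replicates 3 and 4 (-12.5 and -29.2), while the wildtype arrays lay between 1.58 and 4.38. Results are therefore also given without replicates 1 and 2, a comparison added after the data were seen, in which 152 probes differed, against 754 without replicates 3 and 4.

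Of the 7 tested members, Foxa1 and Cebpb fell in Cic-L-/- liver, Nr2f2 rose at 1 of its 3 probes, and Hnf4a, Foxa2, Foxa3 and Nr1h4 did not pass. The Nr2f2 probe entered the test only through the Cic-L-/- arrays, where it is high, so it adds nothing to a count of calls. The calls stand beside the 6.2% of all tested probes, and the members were proposed with these results known, so the count is a description. Of the 7 differences 6 were negative, with a median of -0.37 on the log2 scale, against 50.1% negative and a median of -0.00083 over all tested probes. The 4 values of each group did not overlap for Foxa1, Cebpb and the tested Nr2f2 probe, as was the case for 14.3% of all tested probes. In liver tissue, fewer cells of a type and less RNA per cell cannot be told apart.

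**Figure D1:**
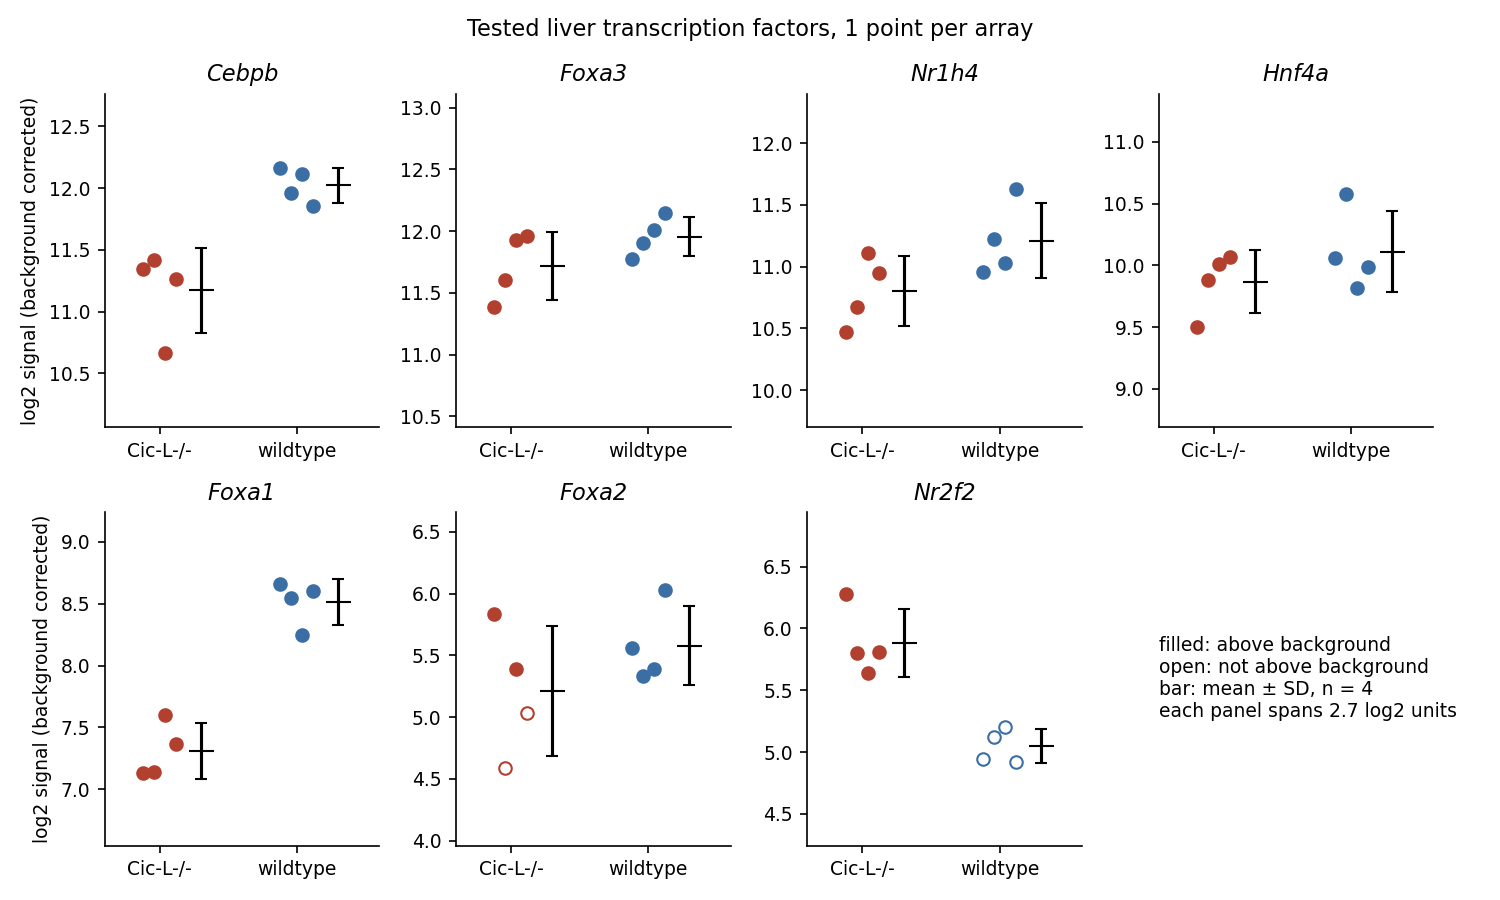
Log2 background-corrected signal of the 7 tested members, with 1 point per array, filled where the probe was above background and open where it was not; bars are the mean ± SD of 4 arrays, and every panel spans the same range of log2 units. The groups are apart for Foxa1, Cebpb and Nr2f2 and overlap for Foxa3, Nr1h4, Hnf4a and Foxa2.

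Among the forkhead genes, Foxa1 had log2 signals of 7.13, 7.14, 7.60 and 7.37 in Cic-L-/- replicates 1 to 4, against 8.66, 8.55, 8.25 and 8.60 in wildtype replicates 1 to 4. Every Cic-L-/- array lay below every wildtype array. The means were 7.31 ± 0.22 in Cic-L-/- and 8.52 ± 0.19 in wildtype liver (SD, n = 4 each). Foxa1 thus fell 2.31-fold, by 1.21 ± 0.17 on the log2 scale (SE, limma adjusted p = 0.00174). The call held without any single array (highest adjusted p = 0.00869) and without Cic-L-/- replicates 1 and 2 (log2 difference -1.03, adjusted p = 0.0399). In the signal as deposited, without background correction or normalisation, the probe read 310, 281, 317 and 295 units on the Cic-L-/- arrays and 507, 428, 413 and 432 units on the wildtype arrays. The ordering of the groups is therefore already present in the deposited intensities. On the deposited log2 scale, where background is not subtracted, the difference was -0.81.

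Foxa2, the member of the family with roles in bile acid and lipid homeostasis, had 2 probes. The brighter read 5.83, 4.59, 5.39 and 5.03 in Cic-L-/- replicates 1 to 4 and 5.56, 5.33, 5.39 and 6.03 in wildtype replicates 1 to 4. It was above background on 2 Cic-L-/- arrays and on 4 wildtype arrays, and the groups overlapped. The difference was -0.37 (95% confidence interval -0.93 to 0.19, adjusted p = 0.450). That interval holds both no change and a fall of the size measured in Hnf4a, Nr1h4 or the called member Cebpb. The other Foxa2 probe was above background on 0 arrays and differed by 0.25 in the opposite direction (adjusted p = 0.327 over all 25697 probes). This dim probe had no overlap between the groups, at 4.59 to 4.87 in Cic-L-/- and 4.36 to 4.53 in wildtype liver. The median of the control rows was also higher on the Cic-L-/- arrays (138.5 to 141.9 units) than on the wildtype arrays (114.2 to 136.3 units), and the part of background in that difference was not tested.

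Foxa3, which acts mainly on glucose metabolism genes in postnatal liver, had log2 signals of 11.38, 11.61, 11.93 and 11.96 in Cic-L-/- replicates 1 to 4, against 11.77, 11.90, 12.01 and 12.14 in wildtype replicates 1 to 4. Only Cic-L-/- replicates 1 and 2 lay below all wildtype arrays. The difference was -0.24 (95% confidence interval -0.61 to 0.14, adjusted p = 0.470), and the interval does not reach the change measured in Foxa1. Foxa3 lies on chromosome 7, as Cic does, 203 protein-coding genes away by the gene order of GRCm38.p6.

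The change of Foxa1 relative to Foxa3 was read from the within-array log2 difference between probes, in which the offset of each probe cancels. The pairs were chosen with earlier results of these data known, so their p-values are a description and not independent support. Foxa1 minus Foxa3 was -4.26, -4.47, -4.33 and -4.59 in Cic-L-/- replicates 1 to 4 and -3.11, -3.35, -3.76 and -3.54 in wildtype replicates 1 to 4. The change in this difference was -0.97, and the groups did not overlap (exact permutation test over all 70 splits, two-sided, adjusted p = 0.0286 over 2 pairs, the smallest the design allows). Foxa1 minus Foxa2 was 1.30, 2.55, 2.21 and 2.33 in Cic-L-/- replicates 1 to 4 and 3.10, 3.22, 2.86 and 2.57 in wildtype replicates 1 to 4. Its change was -0.84, and Cic-L-/- replicate 2 lay just below wildtype replicate 4. Foxa2 was not above background in Cic-L-/- replicates 2 and 4, so a fall of Foxa2 itself could not show there, and this pair does not tell whether Foxa1 changed more than Foxa2. With median centring in place of quantile normalisation the Foxa3 pair did not pass (-0.84, exact permutation adjusted p = 0.0571), and the same p was reached when Cic-L-/- replicate 1 or any 1 wildtype array was dropped. Cebpb could not be set against Cebpa, nor Nr0b2 against Nr1h4, because the Cebpa and Nr0b2 probes were not above background.

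**Figure D2:**
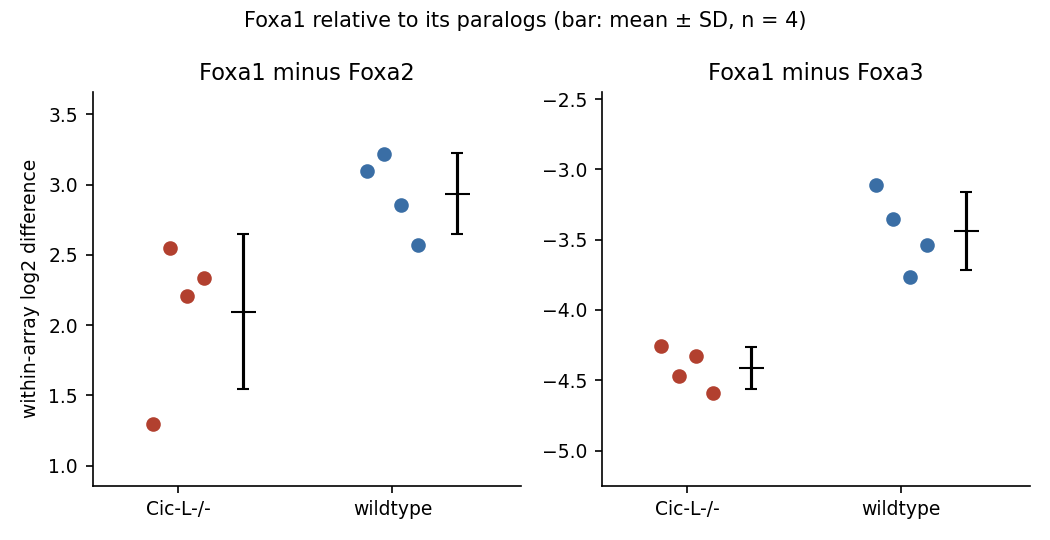
Within-array log2 difference of Foxa1 from Foxa2 and from Foxa3, 1 point per array, with the mean ± SD of 4 arrays beside each group. The Cic-L-/- arrays lie below the wildtype arrays in both panels, narrowly so against Foxa2, where the nearest values are 2.55 in Cic-L-/- and 2.57 in wildtype liver.

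Of the C/EBP genes, Cebpb, which takes part in acute phase, gluconeogenic and regenerative responses, had log2 signals of 11.34, 11.42, 10.67 and 11.26 in Cic-L-/- replicates 1 to 4, against 12.16, 11.96, 12.11 and 11.85 in wildtype replicates 1 to 4. All Cic-L-/- arrays lay below all wildtype arrays, and Cic-L-/- replicate 3 was the lowest. The means were 11.17 ± 0.34 in Cic-L-/- and 12.02 ± 0.14 in wildtype liver (SD, n = 4 each). Cebpb fell 1.80-fold, by 0.85 ± 0.19 on the log2 scale (SE, limma adjusted p = 0.0201). The deposited intensities were 3374, 3036, 1659 and 2554 units in Cic-L-/- and 4742, 3646, 4519 and 3500 units in wildtype liver. Cebpb missed the threshold when wildtype replicate 1 was dropped (-0.80, adjusted p = 0.0591) and when wildtype replicate 3 was (-0.82, adjusted p = 0.0521), with median centring (-0.77, adjusted p = 0.0525), without Cic-L-/- replicates 1 and 2 together (-1.06, adjusted p = 0.0517), and without replicates 3 and 4 together (-0.64, adjusted p = 0.0566). The difference remained negative in each of these.

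Cebpa, the C/EBP factor that maintains metabolic gene expression in the quiescent hepatocyte, was measured by 1 probe that was above background on 0 of the 8 arrays. Its log2 signals were 4.46 to 4.97 in Cic-L-/- and 4.29 to 5.10 in wildtype liver, and the difference was -0.04 (95% confidence interval -0.45 to 0.38, adjusted p = 0.970 over all probes). Cebpa is known as an abundant liver transcript, and no level of it can be read from this probe. It lies on chromosome 7, 244 protein-coding genes from Cic.

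Among the nuclear receptors, Hnf4a had log2 signals of 9.50, 9.88, 10.01 and 10.07 in Cic-L-/- replicates 1 to 4, against 10.06, 10.58, 9.81 and 9.99 in wildtype replicates 1 to 4. The groups overlapped. The difference was -0.24 (95% confidence interval -0.68 to 0.19, adjusted p = 0.518), so a fall as large as that of Foxa1 or Cebpb lay outside the interval and smaller changes did not.

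Nr1h4, the bile acid receptor gene, had log2 signals of 10.47, 10.67, 11.11 and 10.94 in Cic-L-/- replicates 1 to 4, against 10.95, 11.22, 11.03 and 11.63 in wildtype replicates 1 to 4. Its difference of -0.41 was the largest of the 4 tested members that did not pass (95% confidence interval -0.84 to 0.02, adjusted p = 0.259), and Cic-L-/- replicate 3 lay within the wildtype range. Over the alternatives its difference ran from -0.64 to -0.18, and the lowest adjusted p was 0.123. Nr0b2, its target gene, was above background on 0 arrays, at 4.37 to 4.58 in Cic-L-/- and 4.41 to 5.14 in wildtype liver (difference -0.19, 95% confidence interval -0.55 to 0.17, adjusted p = 0.739 over all probes), so the best known readout of FXR activity was not measurable at this signal.

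**Figure D3:**
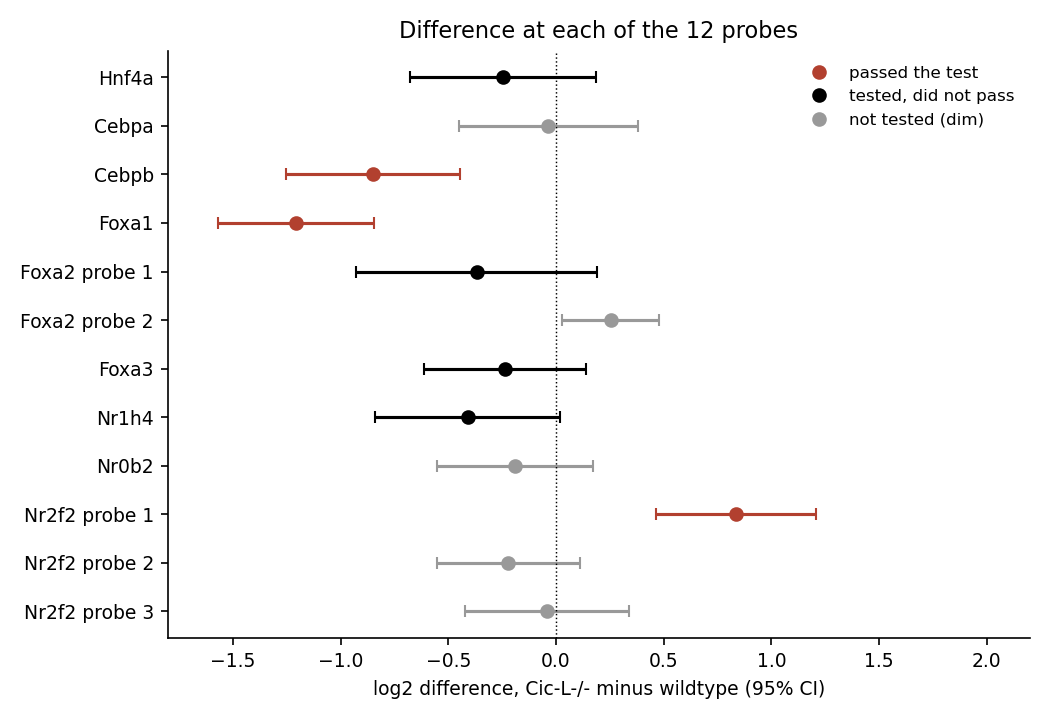
Log2 difference, Cic-L-/- minus wildtype, at each of the 12 member probes, with 95% confidence intervals; colours separate probes that passed the test, tested probes that did not, and probes too dim to test. Foxa1 and Cebpb lie below 0 and Nr2f2 probe 1 above it, while the intervals of Hnf4a, Foxa2 probe 1, Foxa3 and Nr1h4 hold 0.

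Nr2f2 gave discordant probes. Probe 1, which the annotation assigns to transcript NM_183261, had log2 signals of 6.27, 5.80, 5.64 and 5.81 in Cic-L-/- replicates 1 to 4, against 4.95, 5.12, 5.20 and 4.92 in wildtype replicates 1 to 4. It was above background on 4 of 4 Cic-L-/- arrays and on 0 of 4 wildtype arrays. In the group means, Nr2f2 probe 1 was thus at least 1.62-fold higher in Cic-L-/- liver (means 5.88 ± 0.27 in Cic-L-/- and 5.05 ± 0.14 in wildtype liver, SD, n = 4 each). The wildtype level is here the higher of the probe's own value and the lowest detected signal on each array. This bound covers the dim wildtype signal and not sampling error. Without it the log2 difference was 0.83 (95% confidence interval 0.46 to 1.21). In limma on all 25697 probes, where no detection filter favours a probe seen in 1 group, its adjusted p was 0.0199, and on the 10300 filtered probes it was 0.0151. The deposited intensities were close to background, at 226, 185, 173 and 184 units in Cic-L-/- and 141, 130, 156 and 132 units in wildtype liver. Without background correction the difference was 0.25 and did not pass (adjusted p = 0.0752), and it did not pass without Cic-L-/- replicates 1 and 2 (0.68, adjusted p = 0.108).

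The other Nr2f2 probes did not show this rise. Probe 2, assigned to the same transcript, read 4.85, 4.49, 4.35 and 4.76 in Cic-L-/- replicates 1 to 4 and 4.97, 5.05, 4.71 and 4.61 in wildtype replicates 1 to 4, a difference of -0.22 (adjusted p = 0.644 over all probes). Probe 3, assigned to NM_009697, read 4.48 to 4.85 in Cic-L-/- and 4.45 to 5.15 in wildtype liver, a difference of -0.04 (adjusted p = 0.963 over all probes). Both were above background on 0 of the 8 arrays, so the rise rests on 1 probe. Nr2f2 lies on chromosome 7, 577 protein-coding genes from Cic, and 3 of the 9 members lie on that chromosome.

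**Figure D4:**
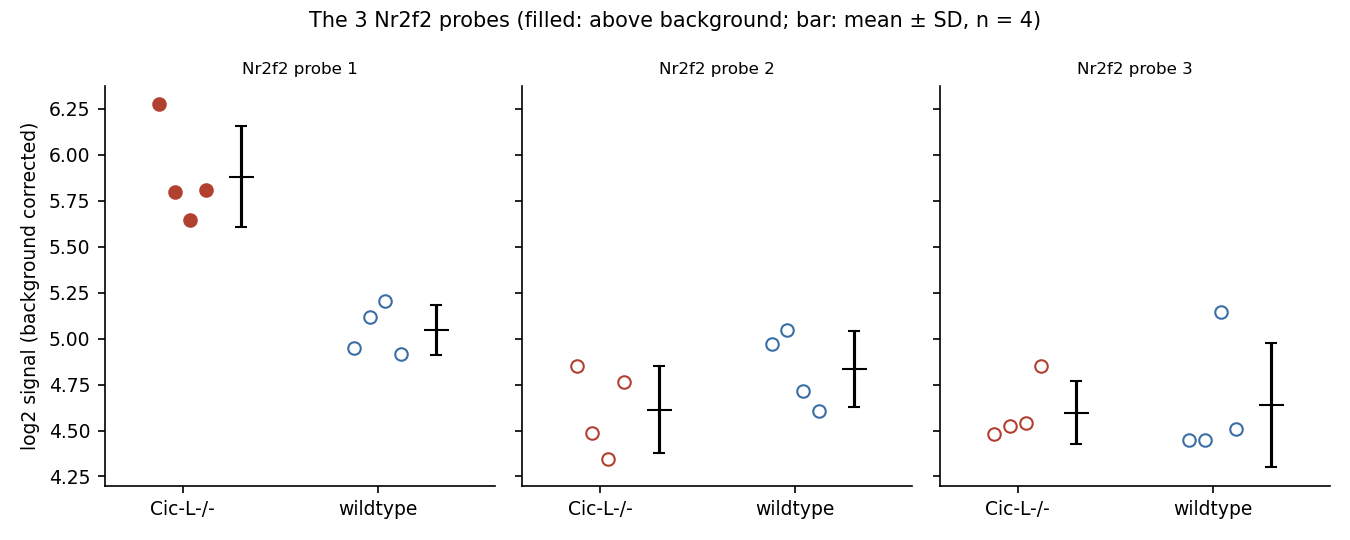
Log2 background-corrected signal of the 3 Nr2f2 probes, 1 point per array, filled where above background and open where not, with the mean ± SD of 4 arrays. Only probe 1 on the Cic-L-/- arrays, at 5.64 to 6.27, was above background.

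Because Nr2f2 is a gene of endothelial and mesenchymal cells, their markers stand beside it. Of 9 endothelial markers, all tested, 0 passed in limma (3 had an unadjusted p under 0.05, as did 21.2% of all tested probes) with a median difference of 0.26, and their summed corrected signal was 4618 to 6022 units in Cic-L-/- and 4491 to 4903 units in wildtype liver. Only 1 of the 9 endothelial differences was negative, against 50.1% of all tested probes. Of 9 stellate and mesenchymal markers 7 were tested and 0 passed (2 at an unadjusted p under 0.05, median 0.17), with sums of 12172 to 15552 units in Cic-L-/- and 10281 to 12086 units in wildtype liver. These stellate sums did not overlap between the groups, and 3 of the 7 differences were negative. The stellate sums are mostly Reln (0.38, limma adjusted p = 0.211) and Dcn (0.17, adjusted p = 0.526), and neither passed. Lrat was above background on 0 arrays and Pdgfrb on 1 of 8. Among blood and immune lists, 2 of 5 tested Kupffer cell markers (Marco and Adgre1), 3 of 5 neutrophil markers (S100a9, Ltf and S100a8) and 1 of 2 tested lymphocyte markers (Cd79a) rose, while 0 of 3 erythroid markers passed (0 also at an unadjusted p under 0.05). Of all tested probes, 3.63% were called higher. A second, dimmer tested Adgre1 probe did not pass (0.76, limma adjusted p = 0.106). Marco was above background on 4 Cic-L-/- arrays and 1 wildtype array, so the Cic-L-/- arrays alone sufficed for it to enter the test. Marco therefore adds nothing to the count of Kupffer cell calls. The Kupffer sum was 2601 to 5376 units in Cic-L-/- and 2028 to 2375 units in wildtype liver, the neutrophil sum 3350 to 4878 units in Cic-L-/- and 1963 to 2471 units in wildtype liver, and the lymphocyte sum 108 to 187 units in Cic-L-/- and 74.6 to 111 units in wildtype liver. Hepatocyte marker sums were 169761 to 177381 units in Cic-L-/- and 165199 to 173133 units in wildtype liver, and 0 of 5 tested passed (2 at an unadjusted p under 0.05). These sums are mostly Ahsg and Serpina1b, which lay between 15.66 and 15.92 on every array, at the top of the quantile-normalised scale, so they could hardly differ and say little about the hepatocyte share. The part of cell composition in the member differences was not tested. Of these immune calls, S100a9 and Ltf held when any single array was left out. Adgre1 was lost only when Cic-L-/- replicate 1 was dropped, Marco with any 1 array dropped except Cic-L-/- replicate 3 or 4 and wildtype replicate 1, S100a8 in every case except Cic-L-/- replicates 3 and 4, and Cd79a in every case except Cic-L-/- replicate 3. With Cic-L-/- replicates 1 and 2 both absent, none of the 6 passed.

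Among 35 other transcription factors of the liver network, 30 were on the array and 26 were tested. Hhex, Xbp1 and Nfil3 fell, Dbp rose and 22 did not pass, beside calls at 6.2% of all tested probes. An unadjusted limma p under 0.05 was reached by 6 of the 26, and by 21.2% of all tested probes. The median difference of the 26 factors was -0.10, and 15 of 26 were negative. The homeobox factor Hhex, required for liver bud outgrowth, had log2 signals of 10.35, 10.52, 10.87 and 10.86 in Cic-L-/- replicates 1 to 4, against 11.68, 11.85, 11.17 and 11.38 in wildtype replicates 1 to 4. All Cic-L-/- arrays lay below all wildtype arrays, a 1.83-fold fall (adjusted p = 0.0221). Hhex no longer passed when Cic-L-/- replicate 1 (adjusted p = 0.0709) or 2 (0.0658) was dropped, nor when wildtype replicate 1 (0.0635) or 2 (0.0628) was. Xbp1, the factor of the unfolded protein response and secretory capacity, fell 1.73-fold (adjusted p = 0.00848), and its call held without any single array. Of the clock-output factors, Dbp rose 2.29-fold (adjusted p = 0.00596), and Nfil3, which represses at the sites Dbp activates, was 1.59-fold lower (adjusted p = 0.0158), while the related Hlf (-0.29, adjusted p = 0.445) and Tef (0.03, adjusted p = 0.933) did not pass. Dbp passed with any single array dropped, while Nfil3 missed the threshold when Cic-L-/- replicate 2 (0.0502) or wildtype replicate 1 (0.0501) was dropped and with median centring (0.0691). None of these 4 passed without Cic-L-/- replicates 1 and 2. The dimerisation partner Rxra differed by -0.34 (adjusted p = 0.397) and Ppara by -0.21 (adjusted p = 0.617). Onecut1, Gata4, Nr3c1 and Klf15 were too dim to test.

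**Figure D5:**
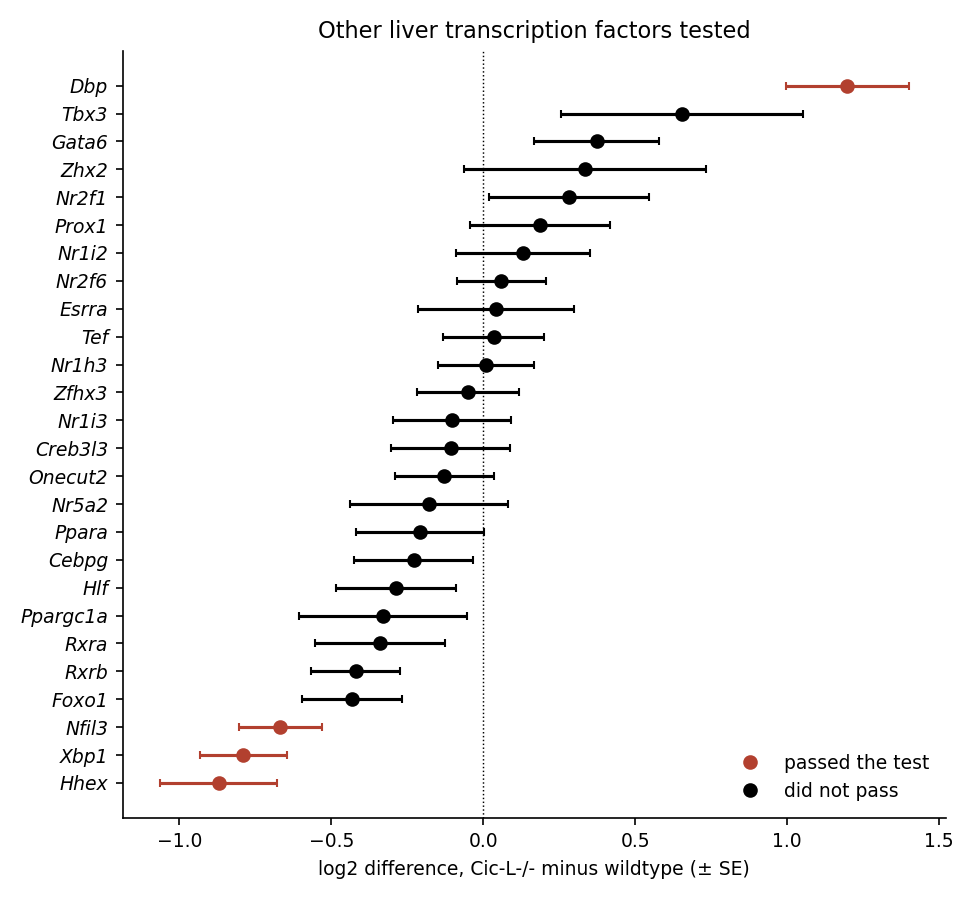
Log2 difference, Cic-L-/- minus wildtype, with its SE for the 26 other liver transcription factors tested. Hhex, Xbp1 and Nfil3 passed below 0 and Dbp above it, and the 22 others lie between them.

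Known targets of the members were counted from lists taken from textbook roles. Of all tested probes, 6.2% were called and 21.2% had an unadjusted limma p under 0.05. That unadjusted level was reached by 4 of 8 tested FOXA targets and 4 of 9 tested C/EBP targets. Of 8 tested FOXA targets only the fetal gene Afp passed, and it rose 7.43-fold (adjusted p = 0.00450) while Foxa1 fell. The other 7, among them the gluconeogenic enzyme Pck1 (-0.49, adjusted p = 0.296), did not pass, and the median was -0.34. The count of FOXA targets that passed was 2 without background correction, without wildtype replicate 4 or without Cic-L-/- replicates 3 and 4, and 3 with an offset of 50 or a variance trend. Tat, an enzyme of tyrosine breakdown that both FOXA and C/EBP factors control, was above background on 0 arrays. Of 9 tested C/EBP targets, liver glycogen synthase Gys2 rose 2.66-fold (adjusted p = 0.0111) while Cebpb fell, and 8 did not pass (median -0.33). Cebpa could not be measured. The part of Foxa1 in the change of Afp, or of Cebpb in that of Gys2, was not tested. The C/EBP count was 2 with an offset of 50, with a variance trend, without Cic-L-/- replicate 1 or 2, and without both. Without Cic-L-/- replicates 1 and 2, Afp (2.17, adjusted p = 0.0789) and Gys2 (0.93, adjusted p = 0.0936) did not pass, whereas Pck1 did (-1.002, adjusted p = 0.0325). Without Cic-L-/- replicates 3 and 4 Pck1 was at 0.020.

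Of 11 tested genes that FXR is known to induce, 3 fell, 1 rose and 7 did not pass, with a median of -0.37. An unadjusted limma p under 0.05 was reached by 6 of the 11. Over all tested probes 6.2% were called and 21.2% reached that unadjusted level. The lipase cofactor Apoc2 fell 10.7-fold (adjusted p = 9.77e-07), the bile acid conjugating enzyme Baat 3.24-fold (adjusted p = 9.97e-05) and Fetub 1.54-fold (adjusted p = 0.0329), while Slc51b, a subunit of a bile acid exporter, was 1.63-fold higher (adjusted p = 0.0181). The Apoc2 and Baat calls held without any single array. A second Apoc2 probe, above background on 2 Cic-L-/- arrays and 0 wildtype arrays, was too dim to test. It did not show the fall (0.40, limma adjusted p = 0.701 over all probes). Fetub missed the threshold with any 1 array dropped except Cic-L-/- replicate 3 and wildtype replicate 4 (highest adjusted p = 0.0957), and Slc51b when wildtype replicate 4 was (0.0532). The bile salt pump Abcb11, a direct FXR target, read 10.25 to 10.45 in Cic-L-/- and 10.57 to 10.96 in wildtype liver. The Abcb11 groups did not overlap, and the difference of -0.45 did not pass (adjusted p = 0.102). Abcb11 passed without background correction (adjusted p = 0.0217), with an offset of 50 (0.0493) and with a variance trend (0.0381). Of 4 genes that FXR and SHP are known to repress, Cyp7a1, the rate-limiting enzyme of bile acid synthesis, and Cyp8b1, the bile acid 12-alpha-hydroxylase, fell and 2 did not pass, with a median of -0.55. An unadjusted limma p under 0.05 was reached by 2 of the 4. Cyp8b1 fell 1.88-fold (adjusted p = 0.0271) and missed the threshold with any 1 array dropped except Cic-L-/- replicate 2 and the wildtype arrays 1 and 2 (highest adjusted p = 0.0665). Cyp7a1 read 10.54, 10.46, 11.59 and 12.19 in Cic-L-/- replicates 1 to 4 and 13.43, 13.09, 13.39 and 12.94 in wildtype replicates 1 to 4, with no overlap, a 4.05-fold fall (adjusted p = 0.00561). With Cic-L-/- replicates 1 and 2 absent, Apoc2, Baat and Cyp7a1 still passed, and Cyp8b1, Fetub and Slc51b did not.

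Likeness to each called member was ranked by Pearson's r of log2 signal over the 8 arrays, among 7636 other genes. These values include the difference between the groups and are given as a description. Closest to Foxa1 were Selenbp2 (r = 0.992), Mgmt (0.991) and Rbm4 (0.989). Selenbp2, a selenium-binding protein gene, fell by 1.70 on the log2 scale (adjusted p = 5.99e-04), and Rbm4, an RNA-binding protein gene, by 0.63 (adjusted p = 0.0256), while Mgmt, a DNA repair gene, differed by -0.30 (adjusted p = 0.221). Rbm4 passed with a single array dropped only for Cic-L-/- replicates 3 and 4 and wildtype replicate 3 (highest adjusted p = 0.0769). Closest to Cebpb were Notch1 (0.984), Fastkd1 (0.975) and Klf9 (0.970), of which the Krüppel-like factor Klf9 fell by 0.99 (adjusted p = 0.0151) and Fastkd1 by 0.79 (adjusted p = 0.0406), while Notch1 did not pass (-0.62, adjusted p = 0.0576). Fastkd1 passed with no single array dropped except Cic-L-/- replicate 2 (highest adjusted p = 0.108). Closest to Nr2f2 probe 1 were Pqlc3 (0.987), Napsa (0.977) and Satb1 (0.976), which rose by 1.01, 1.11 and 1.05 (highest adjusted p = 0.00956) and did not pass with Cic-L-/- replicates 1 and 2 absent (lowest adjusted p = 0.0905).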

How the data were processed

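Liver RNA of 4 Cic-L-/- and 4 wildtype samples was hybridised to 1 Illumina bead array each, per the labels. The authors deposited a table of linear signal intensity, not normalised between arrays, and a table of log2 values. Taking log2 of the deposited intensity and quantile normalising all 26821 rows gave the deposited log2 values to within 5e-05, with no background subtraction, and the series matrix differed from them by 0. The sources used here do not name the scanner or its software.

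The 1124 rows without a probe ID were read as negative controls, from their values. They gave detection p-values and the normexp background model (limma 3.58.1, R 4.3.3, robust, offset 16), followed by log2 and quantile normalisation. The 10300 probes that reached a detection p below 0.05 on 4 or more arrays entered limma (lmFit, eBayes, two-sided, no covariate) with Benjamini-Hochberg adjustment over them. Probes below that level were read from a fit of all 25697. Every probe was tested, not 1 per gene, because the members are defined as all probes of a symbol. A gene in a list is represented by its brightest tested probe. Platform annotation named 23978 probes, and 1719 were unnamed here. Log2 values with an offset understate changes of dim probes, and the number of arrays limits the precision. The fit was tested on simulated data.

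Members, lists and pairs were chosen with earlier results of these data known. Named genes were all members, up to 4 called genes per list, Ppara, Rxra, Alb, Afp, Cyp7a1, Abcb11, Tat, Pck1 and the 3 genes most like each called member. Ttr, Apoa1, Ahsg, Reln, Dcn and genes too dim to test were named after their values were seen. 1 further target list is not reported here. Alternatives were 2 other background settings, median centring, 2 other detection filters, 1 probe per gene, a variance trend, a replicate block, leaving out each array and, added later, leaving out Cic-L-/- replicates 1 and 2 or 3 and 4.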

Additional observations from a re-analysis of the deposited data

Results flagged for a closer look

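Among 24 groups of 4 member values, 2 held an array far from the others by Dixon's test at the 95% level, and chance gives about 1 in 20. Both were at Nr2f2 probe 3, which was not above background on any array: Cic-L-/- replicate 4 read 4.85, with the nearest array at 4.54, and wildtype replicate 3 read 5.15, with the nearest at 4.51.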

How the results depend on the processing

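Foxa1 kept its direction and its call under all 18 alternatives (log2 difference -1.38 to -0.81, highest adjusted p = 0.0399), and Hnf4a, Foxa2 probe 1, Foxa3 and Nr1h4 passed under none. Without background correction Nr2f2 probe 1 did not pass (0.25). With median centring Cebpb (-0.77), Foxa1 minus Foxa2 (-0.77) and Foxa1 minus Foxa3 (-0.84) did not pass, and that scaling moved the median of all tested probes by 0.16 and the share of calls that were higher to 82.8%, against 58.5%. Without Cic-L-/- replicates 1 and 2, where 2 arrays face 4, 152 probes and 1 member (Foxa1) passed, with Cebpb at -1.06 and Nr2f2 probe 1 at 0.68. Without Cic-L-/- replicates 3 and 4, at the same number of arrays, 754 probes passed, and Cebpb was at -0.64 and did not. Leaving out 1 array gave 346 to 687 probes (346 without Cic-L-/- replicate 1 or 2, and 400, 393 and 408 without wildtype replicate 1, 2 or 4), 2 to 3 members, -0.93 to -0.68 for Cebpb, -0.99 to -0.57 for Foxa1 minus Foxa2 and -1.08 to -0.86 for Foxa1 minus Foxa3. Both pair calls ended without Cic-L-/- replicate 1 or any 1 wildtype array (exact permutation adjusted p = 0.0571). In those fits Foxa1 minus Foxa3 was still at -1.08 to -0.86, and its p was adjusted together with that of Foxa1 minus Foxa2. Without Cic-L-/- replicate 2, 3 or 4 both pairs kept an exact permutation adjusted p of 0.0286. The highest count, 687 probes, was reached without Cic-L-/- replicate 4. What sets these counts was not tested.

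Same-numbered samples deviated together at r = -0.02 to 0.05, so no shared deviation by number was seen. Whether the numbers pair the samples in some other way cannot be told from these values. With the replicate block 508 probes passed in place of 639, and 2 of the 8 samples correlated best with their own number. The pairs then were -0.84 for Foxa1 minus Foxa2 and -0.97 for Foxa1 minus Foxa3 with an exact permutation p of 0.125, the smallest that 4 pairs allow, and no member call ended.

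Signs turned in differences that had not passed. Cebpa was at 0.023 without background correction, -0.17 to 0.11 with 1 array left out and 0.036 without Cic-L-/- replicates 1 and 2. Nr2f2 probe 3 was at 0.00068, -0.12 to 0.13 and 0.055 under the same settings. Ppara was at 0.069 without Cic-L-/- replicates 1 and 2, and Pck1 at 0.020 without Cic-L-/- replicates 3 and 4, and it passed at -1.002 without replicates 1 and 2. Signal close to background limits Cebpa, Foxa2, Nr0b2 and Nr2f2.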
